A study of Mus musculus with 9 samples.

Results

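Transcripts of 37 genes of cholesterol synthesis, fatty acid synthesis and lipid handling were examined in engineered mouse muscle. The members were taken by gene symbol, and all 37 were found among the 40879 symbols of the count files. They comprised 16 enzymes of sterol synthesis, 6 genes of sterol sensing and transport, 10 enzymes of fatty acid synthesis, elongation and desaturation, and 5 genes of lipid carriage and glycerolipid synthesis. The constructs held WT C2C12 cells, an established line of mouse muscle precursors able to form myotubes, embedded in extracellular matrix prepared from muscle tissue. Growth lasted 2 days in every group, and differentiation under 10% equine serum lasted 10 days. Irradiated constructs (3 libraries) received 20 Gy of X-rays in a single exposure to induce senescence. Cocultured constructs (3 libraries) were themselves not irradiated and shared a dish with an irradiated construct. Normal constructs (3 libraries) were not irradiated. The series design text counts 2 samples each of the irradiated and normal conditions, and all 3 labelled libraries were used. The labels call the replicates biological, but constructs were kept in pairs, and which of them came from a common dish is not given, so p-values measure only the spread between these libraries. All samples derive from 1 cell line.

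Cells make cholesterol from acetyl-CoA through the mevalonate pathway and a series of sterol-modifying steps, and fatty acids through acetyl-CoA carboxylase and fatty acid synthase. Both pathways are controlled by the sterol regulatory element binding proteins, SREBP-1 and SREBP-2, which SCAP escorts out of the endoplasmic reticulum when sterols are scarce and which the INSIG proteins hold back when sterols are plentiful. Differentiated muscle takes up much of its lipid from lipoproteins through lipoprotein lipase, and cells return excess cholesterol to carriers such as apolipoprotein E through the ABCA1 transporter.

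A few promoters are shown for the motifs of sterol-regulated genes that they hold or lack. RefSeq windows from 250 bases before to 50 bases after the gene start were found for 29 of the 37 members. The CCAAT box, the NF-Y site known to act beside SREBP in sterol-regulated promoters, was searched as CCAAT on either strand. It occurred in 22 of these 29 members (75.9%) and in 41.1% of all 27025 genes with such a window. The sterol regulatory element, searched as TCACNCCAC on either strand, occurred in Hmgcs1 alone among the 29 (3.45%) and in 1.44% of all genes, and the SREBP E-box form TCACGTGA occurred in none of the 29 and in 1.12% of all genes. No match of the sterol regulatory element overlapped a CCAAT box in the members' windows, while CCAAT boxes on opposite strands can overlap each other, as in Fasn. A match is a match of letters only, and the lack of a match does not show that an element is absent. Hmgcs1 is shown because it holds both motifs, its sterol regulatory element starting 137 bases before the gene start. Fasn is shown for its CCAAT boxes and had no match of the letters searched for the sterol regulatory element. Apoe and Agpat2 are shown because they held neither motif and had the smallest p-values below. Capitals mark the sterol regulatory element and the CCAAT boxes, all sequences run 5′ to 3′ in the direction of the gene, and positions are those of RefSeq on GRCm38.p6, a different build from the GRCm39 named by the submitters.
Hmgcs1 (chr13:119690101-119690400, plus strand): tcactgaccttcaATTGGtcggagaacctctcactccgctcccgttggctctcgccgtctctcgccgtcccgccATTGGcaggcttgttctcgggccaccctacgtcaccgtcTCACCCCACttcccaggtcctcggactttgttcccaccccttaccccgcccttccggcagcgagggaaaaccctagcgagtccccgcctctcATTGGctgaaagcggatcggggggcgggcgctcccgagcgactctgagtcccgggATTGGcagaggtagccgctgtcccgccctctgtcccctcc
Fasn (chr11:120824498-120824797, minus strand): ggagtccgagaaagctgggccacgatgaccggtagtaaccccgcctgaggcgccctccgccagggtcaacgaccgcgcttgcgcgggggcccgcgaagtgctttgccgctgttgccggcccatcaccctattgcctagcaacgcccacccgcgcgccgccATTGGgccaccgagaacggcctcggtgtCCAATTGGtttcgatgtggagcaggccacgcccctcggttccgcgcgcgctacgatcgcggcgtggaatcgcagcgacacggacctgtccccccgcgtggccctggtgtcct
Apoe (chr7:19699139-19699438, minus strand): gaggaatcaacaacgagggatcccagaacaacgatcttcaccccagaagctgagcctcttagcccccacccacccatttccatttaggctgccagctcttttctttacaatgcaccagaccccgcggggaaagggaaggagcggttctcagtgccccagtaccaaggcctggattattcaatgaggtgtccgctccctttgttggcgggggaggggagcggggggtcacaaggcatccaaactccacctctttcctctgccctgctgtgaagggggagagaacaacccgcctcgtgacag
Agpat2 (chr2:26604368-26604667, minus strand): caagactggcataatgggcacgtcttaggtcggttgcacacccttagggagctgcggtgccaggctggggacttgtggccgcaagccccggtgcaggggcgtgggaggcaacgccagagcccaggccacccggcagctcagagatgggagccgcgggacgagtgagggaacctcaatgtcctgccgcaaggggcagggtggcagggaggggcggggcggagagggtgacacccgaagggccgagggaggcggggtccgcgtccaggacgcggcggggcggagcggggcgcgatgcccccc
Of the 3 RefSeq starts of Apoe the most upstream is shown.

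The libraries held 4840993 to 8290468 counts, and 8306 to 14159 genes were detected in each. Irradiated 2 and irradiated 3 stood apart in detection. Of 2963 genes with 20 to 50 CPM on average over the normal and cocultured libraries, the share without a count was 20.5% for irradiated 2, 17.1% for irradiated 3 and 5.23% for irradiated 1, against 0.0675% to 3.54% for the other libraries. These genes were chosen by their level in the normal and cocultured libraries, which by itself lowers the shares of those libraries. Without such a choice, 8306 genes were detected in irradiated 2, 8654 in irradiated 3, 11126 in irradiated 1 and at least 10002 in each other library. Normal 3 and irradiated 1 stood apart in the sum over 13 muscle markers, with 118000 and 73000 CPM against 5340 to 11800 CPM in the other 7 libraries. Acta1, Ttn, Tnnt3, Tnni2 and Ckm made up most of both high sums. Not all markers followed, as Mymk was lowest of all libraries in normal 3 (68.4 CPM) and Myh3 in irradiated 1 (60.5 CPM). All 13 muscle markers had counts. Of the 37 lipid genes, 3 to 7 had no count in an irradiated library, 1 to 3 in a cocultured library and 0 to 5 in a normal library. Values below are CPM, counts scaled to a common library size with TMM factors. They are 3′ end counts not divided by gene length, so levels are compared between groups and not between genes.

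**Figure D1:**
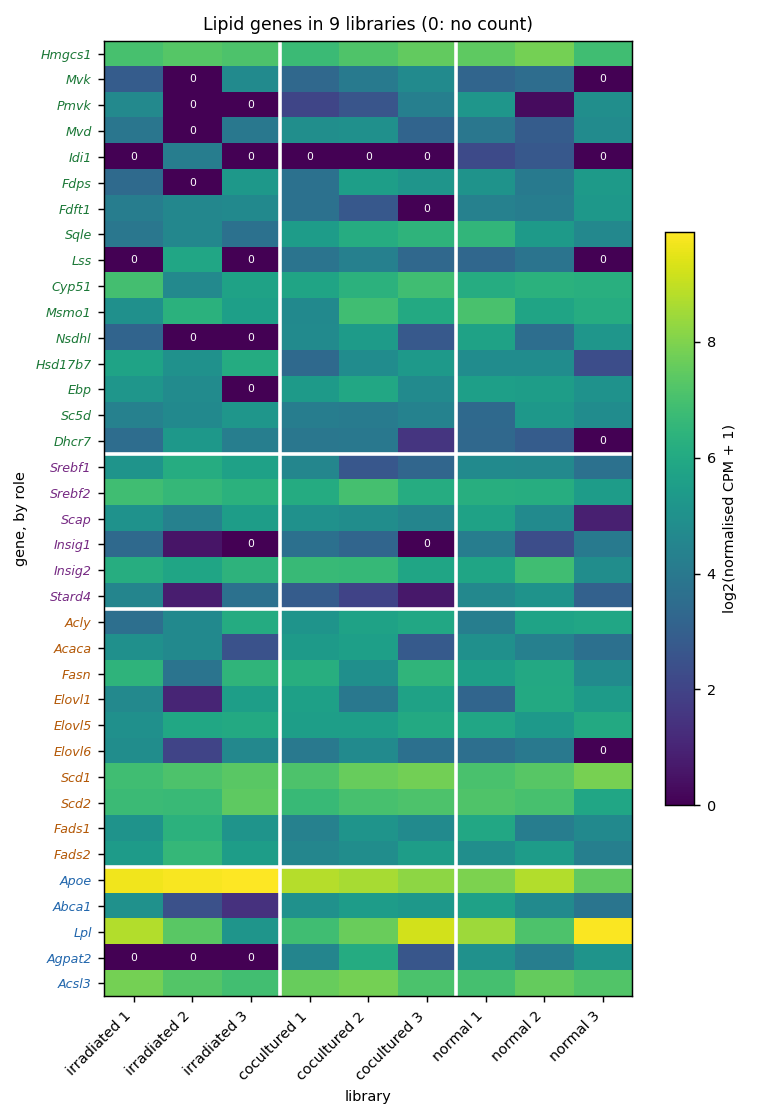
Heat map of log2(normalised CPM + 1) for the 37 lipid genes (rows, coloured by role) in the 9 libraries (columns), with 0 printed where a gene had no count. Zeros lie mainly among the weakly counted sterol synthesis genes, and Agpat2 is at 0 in all 3 irradiated libraries.

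No lipid gene passed the test in any of the 3 comparisons. Between irradiated and normal constructs, the quasi-likelihood test of edgeR, with p-values adjusted over 11980 genes by the Benjamini-Hochberg method, called 0 of the 37 members, and 0.0584% of all genes tested. At an unadjusted p under 0.05 there were 3 members (8.11%), 1 higher (Apoe) and 2 lower (Agpat2 and Sqle), against 10.3% of all genes, of which 1.59% were higher and 8.7% lower. DESeq2 called Apoe and Agpat2 in this comparison, and limma voom called Apoe. The members' libraries did not overlap in 8 genes (21.6%), against 15.7% of all genes tested, and overlapped in the other 29. Of the 37 members, 5 lay apart and higher, against 3.94% of all genes, and 3 lay apart and lower, against 11.8%. The median log2 fold change of the 37 was -0.06, and that of all genes tested was -0.21.

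Apoe, which encodes the lipoprotein ligand and cholesterol carrier apolipoprotein E, had the smallest p-value against normal among members with counts in every group. It stood at 827, 903 and 954 CPM in irradiated constructs, at 445, 384 and 293 CPM in cocultured constructs and at 245, 428 and 176 CPM in normal constructs. All irradiated libraries lay above all others, while cocultured and normal libraries overlapped. Irradiated constructs exceeded normal ones by a log2 fold change of 1.66 ± 0.36 (SE), or 3.16-fold, with a 95% interval of 0.87 to 2.44 on the log2 scale, and the edgeR adjusted p was 0.141. Against cocultured constructs it was 1.26 ± 0.36 (edgeR adjusted p = 0.412), and for cocultured against normal constructs 0.40 ± 0.35 (edgeR adjusted p = 1.0).

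The Apoe difference did not rest on 1 library. As each of the 9 libraries was left out in turn, the log2 value against normal ran from 1.42 to 2.08, with edgeR adjusted p-values from 0.0617 to 0.656. It passed with DESeq2 (log2 1.75, adjusted p = 2.59e-05), with limma voom (log2 1.75, adjusted p = 0.0218) and in edgeR without the filter on low counts (log2 1.67, adjusted p = 0.00399). Macrophages also make apolipoprotein E, and their part in the Apoe values was not tested. The sum over 9 macrophage markers was 1.29 to 22.8 CPM in irradiated, 29.8 to 169 CPM in cocultured and 107 to 456 CPM in normal constructs. Cd14 made up most of this sum in every library but irradiated 1, where it stood at 4.9 CPM of 22.8 CPM. Csf1r stood at 15.8, 0 and 0.117 CPM in irradiated constructs, at 0 in all cocultured constructs and between 4.09 and 37.2 CPM in normal constructs, and Ptprc, Adgre1, Tyrobp and Mrc1 had counts in 1 library each. The sum over 5 hepatocyte markers was 155, 130 and 0.235 CPM in irradiated 1, 2 and 3. Alb made up most of it in irradiated 1 (141 CPM) and irradiated 2 (97.8 CPM), and Ttr and Apoa2 had no count in irradiated constructs. The hepatocyte sum was 6.33 to 40.2 CPM in cocultured and 2.26 to 118 CPM in normal constructs. Over 5 Schwann and glial markers the sum was 7.86 to 25.1 CPM in irradiated, 0.226 to 4.18 CPM in cocultured and 18.3 to 58.6 CPM in normal constructs. The part of these cell types in the Apoe values was not tested either. The constructs were made with 1 cell line, C2C12, so counts of these markers do not show that cells of these types were present. In bulk RNA, fewer cells of a type and less RNA per cell cannot be told apart.

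Agpat2, the acyltransferase that makes phosphatidic acid in triglyceride and phospholipid synthesis, had no count in any irradiated library. It stood at 21.6, 66.7 and 5.31 CPM in cocultured constructs and at 31.2, 18.0 and 34.2 CPM in normal constructs. The 3 irradiated libraries at 0 thus lay below the 6 others. Over 3 libraries these were 0 counts in irradiated, 894 in cocultured and 356 in normal constructs. With the irradiated group set at 3 counts, the limit that a count of 0 allows, Agpat2 was at least 255-fold lower than in cocultured and at least 218-fold lower than in normal constructs, for counting error only. The edgeR adjusted p was 0.184 against cocultured and 0.124 against normal constructs. Of the 2963 genes of 20 to 50 CPM in the normal and cocultured libraries, where Agpat2 averaged 29.5 CPM, 32 (1.08%) had no count in all 3 irradiated libraries. Chosen without the irradiated libraries, this set gives no like share for the other groups. As single libraries were left out, the edgeR adjusted p of Agpat2 against normal ran from 0.0460 without irradiated 1 to 0.493 without normal 1. Over all alternatives, its lowest value was 1.56e-06, with DESeq2.

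Lpl, lipoprotein lipase, varied more within groups than between them. It stood at 427, 162 and 34.6 CPM in irradiated constructs, at 117, 199 and 603 CPM in cocultured constructs and at 352, 141 and 926 CPM in normal constructs. The 3 groups overlapped. Its log2 fold change was -1.19 ± 0.84 for irradiated against normal (SE, edgeR adjusted p = 0.856) and -0.62 ± 0.83 for cocultured against normal (edgeR adjusted p = 1.0). Without normal 3, the library highest in both Lpl and the muscle marker sum, these values were -0.26 and 0.30. The value for irradiated against normal was -2.26 when irradiated 1 was left out. It was -1.31 when normal 3 and irradiated 1, the libraries with the highest muscle marker sums, were left out together. Within the other groups, too, the library with the highest muscle marker sum had the highest Lpl, irradiated 1 and cocultured 3. Cocultured 3 and cocultured 1 differed in Lpl at a like muscle marker sum (11800 and 11300 CPM). Cocultured 2 and normal 1 had the lowest sums of their groups (5340 and 6250 CPM). In Lpl they exceeded cocultured 1 and normal 2. The relation of Lpl to the muscle marker sum was not tested. Adipocytes are another source of this enzyme, and their 6 markers summed to 0 to 17.5 CPM in irradiated, 0 to 1.07 CPM in cocultured and 0.411 to 25.7 CPM in normal constructs, with Plin1 at 0 throughout and Adipoq counted in normal 3 alone.

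Abca1, the transporter that loads cholesterol onto apolipoproteins, stood at 31.3, 4.51 and 1.64 CPM in irradiated constructs, at 31.4, 43.2 and 38.2 CPM in cocultured constructs and at 49.5, 25.9 and 13.4 CPM in normal constructs. The 3 irradiated libraries lay below the 3 cocultured ones, with irradiated 1 only just under the lowest of them. Abca1 had a log2 fold change of -1.59 ± 1.17 against cocultured constructs (SE, edgeR adjusted p = 0.787) and -1.25 ± 1.16 against normal constructs (edgeR adjusted p = 1.0). The second value ran from -3.25 without irradiated 1 to -0.67 without normal 1 as single libraries were left out, and was 0.08 without both irradiated 2 and irradiated 3, so its direction rested on those libraries. Acsl3, which activates fatty acids by joining them to coenzyme A, averaged 165 ± 53.6 CPM in irradiated, 184 ± 44.3 CPM in cocultured and 153 ± 30.3 CPM in normal constructs (SD, n = 3 each), and its groups overlapped.

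**Figure D2:**
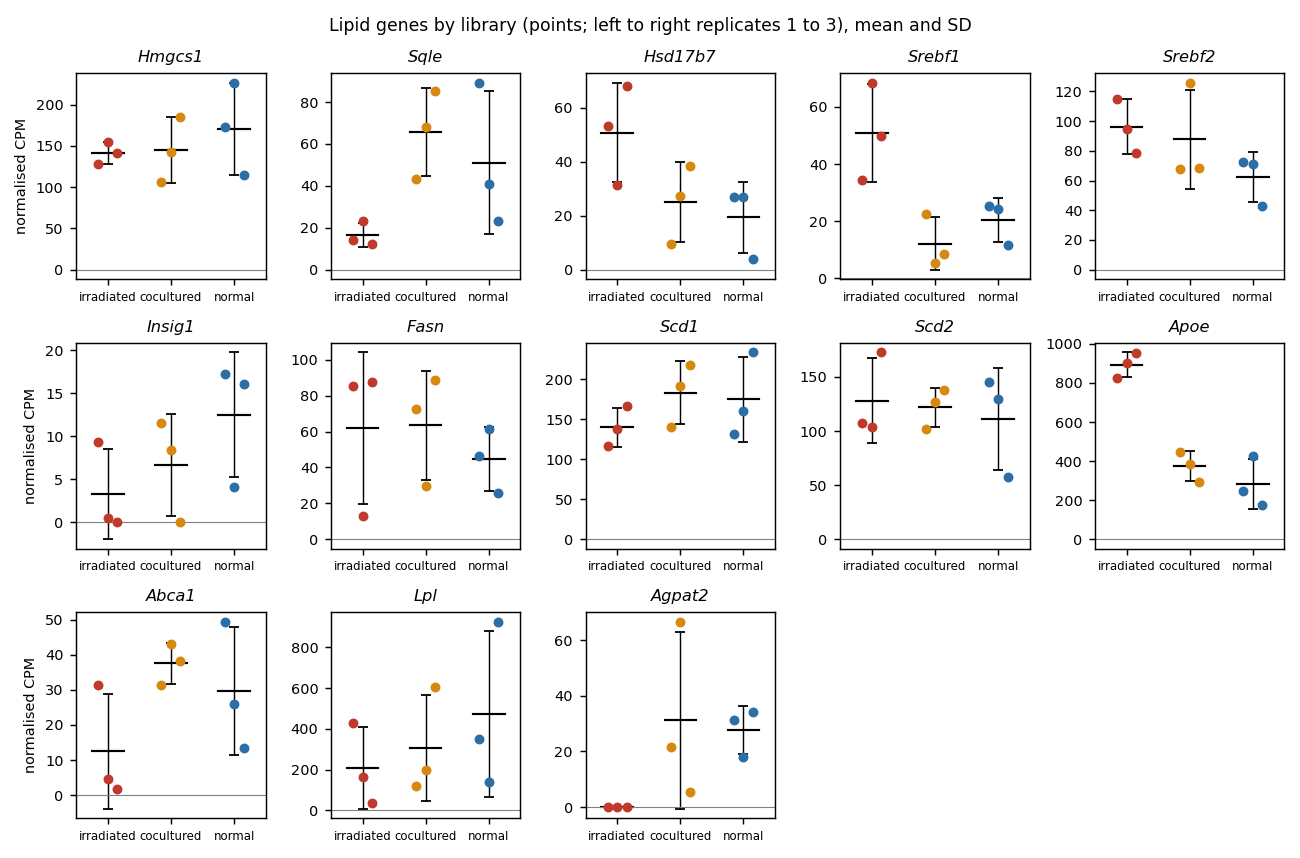
Normalised CPM of 13 lipid genes (vertical axes, from 0 or just below) in irradiated, cocultured and normal constructs, with a point for each library, a bar at the mean and whiskers of 1 SD (n = 3). Apoe is at 827 CPM or more in the 3 irradiated libraries and at 445 CPM or less in the 6 others, and Agpat2 is at 0 in the irradiated libraries. Sqle is lower and Srebf1 higher in the irradiated libraries than in the 6 others. Hsd17b7 and Srebf2 are higher in irradiated than in normal libraries, and Abca1 is lower in irradiated than in cocultured ones. The remaining genes overlap between groups.

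No enzyme of sterol synthesis passed the test in irradiated constructs. Of the 16, 6 had a positive and 10 a negative log2 fold change against normal, with a median of -0.24. This median was -1.15 with limma voom, -0.86 with a replicate block and 0.05 with library totals. Their summed level was 493, 499 and 474 CPM in irradiated constructs, 414, 693 and 635 CPM in cocultured constructs and 731, 594 and 516 CPM in normal constructs. The irradiated sums lay just under the normal ones and within the cocultured range.

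Hmgcs1, the cytosolic HMG-CoA synthase at the head of the mevalonate pathway, was measured with the most precision among these enzymes. It stood at 128, 155 and 141 CPM in irradiated constructs, at 106, 143 and 185 CPM in cocultured constructs and at 173, 226 and 115 CPM in normal constructs. The 3 groups overlapped. The log2 fold change was -0.28 ± 0.37 for irradiated against normal (SE, 95% interval -1.06 to 0.51) and -0.24 ± 0.36 for cocultured against normal (-1.03 to 0.55), and both intervals reached further below 0 than above it. Both signs turned when library totals replaced TMM factors, to 0.09 and 0.24.

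The other enzymes of the mevalonate and isoprenoid steps were thinly counted. Mvk and Pmvk, the kinases of mevalonate and phosphomevalonate, Mvd, the decarboxylase that follows them, and Fdps, the farnesyl diphosphate synthase, each averaged 8.02 to 15.8 CPM in irradiated, 8.79 to 30.7 CPM in cocultured and 6.37 to 30.2 CPM in normal constructs, and each had no count in irradiated 2. Idi1, the isopentenyl diphosphate isomerase, had 182 counts over the irradiated group, all in irradiated 2, no count in cocultured constructs and 43 counts over the normal group. DESeq2 called Idi1 in the comparisons with the cocultured group, but the irradiated counts came from 1 library, and edgeR did not call it (adjusted p = 1.0 for cocultured against normal, 0.493 for irradiated against cocultured). Fdft1, the squalene synthase, averaged 21.7 ± 3.86 CPM in irradiated and 5.93 ± 6.06 CPM in cocultured constructs (SD, n = 3 each) and lay between 17.3 and 38.3 CPM in normal constructs, the cocultured libraries lying below all others without passing the test (edgeR adjusted p = 0.891 for irradiated against cocultured).

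Sqle, squalene epoxidase, a rate-controlling enzyme of the sterol branch, had the smallest p-value among the 16 enzymes against normal. It stood at 14.3, 23.0 and 12.1 CPM in irradiated constructs, at 43.4, 68.1 and 85.2 CPM in cocultured constructs and at 89.3, 40.7 and 23.3 CPM in normal constructs. The irradiated libraries lay below all others, irradiated 2 by a small margin to normal 3. Sqle had a log2 fold change of -1.63 ± 0.72 against normal (SE, unadjusted p = 0.0409, edgeR adjusted p = 0.483) and -1.99 ± 0.73 against cocultured constructs (unadjusted p = 0.0168, edgeR adjusted p = 0.493), whereas cocultured against normal gave 0.36 ± 0.70. Without normal 1 the first value was -0.94.

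Enzymes after squalene epoxidase had values on either side of normal, none of which passed the test in all 9 libraries. Hsd17b7, a 3-ketosteroid reductase of the demethylation complex, stood at 53.2, 31.2 and 67.9 CPM in irradiated constructs, at 9.32, 27.2 and 38.4 CPM in cocultured constructs and at 26.9, 27.0 and 4.10 CPM in normal constructs. The irradiated libraries lay above the normal ones and overlapped the cocultured ones (log2 1.39 ± 0.97 SE against normal, edgeR adjusted p = 0.837). Nsdhl, the sterol dehydrogenase that acts just before it, lay lower in irradiated than in normal libraries, at 8.09, 0 and 0 CPM in irradiated constructs, 25.6, 41.8 and 5.88 CPM in cocultured constructs and 51.3, 10.9 and 35.8 CPM in normal constructs. Its log2 fold change against normal was -3.61 ± 2.01 (SE, edgeR adjusted p = 0.614). It passed without irradiated 1 (edgeR adjusted p = 0.0445), which alone among the irradiated libraries had Nsdhl counts (38), so that call rests on their removal. Nsdhl was singled out after its values were seen.

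Among the remaining sterol enzymes, Dhcr7, which makes cholesterol from its last precursor, averaged 22.1 ± 14.2 CPM in irradiated, 10.3 ± 7.28 CPM in cocultured and 5.13 ± 4.64 CPM in normal constructs (SD, n = 3 each), the irradiated libraries lying above the normal ones (edgeR adjusted p = 1.0). Cyp51, the lanosterol demethylase, and Msmo1, the methylsterol oxidase, overlapped between all groups, with means of 65.7 and 51.9 CPM in irradiated, 83.3 and 68.4 CPM in cocultured and 74.5 and 84.5 CPM in normal constructs. Sc5d, a sterol desaturase, and Ebp, a sterol isomerase, overlapped as well. Lss, the lanosterol synthase, was carried in irradiated constructs by irradiated 2 (57.3 CPM), the other irradiated libraries being at 0.

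Among the genes that set the activity of these pathways, both SREBP transcription factors were higher in irradiated than in normal libraries, without passing the test. Srebf1, which encodes SREBP-1, stood at 34.3, 68.5 and 49.7 CPM in irradiated constructs, at 22.6, 5.48 and 8.59 CPM in cocultured constructs and at 25.5, 24.3 and 11.8 CPM in normal constructs. The irradiated libraries lay above the 6 others. Srebf1 had a log2 fold change of 2.05 ± 0.97 against cocultured (SE, unadjusted p = 0.0543, edgeR adjusted p = 0.493) and 1.31 ± 0.95 against normal constructs (edgeR adjusted p = 0.877).

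Srebf2, which encodes SREBP-2, the main activator of sterol synthesis, stood at 115, 94.8 and 78.7 CPM in irradiated constructs, at 68.0, 126 and 68.6 CPM in cocultured constructs and at 72.5, 71.4 and 43.2 CPM in normal constructs. The irradiated libraries lay above the normal ones, and cocultured 2 lay above all. The log2 fold change against normal was 0.63 ± 0.45 for irradiated (SE, edgeR adjusted p = 0.870) and 0.49 ± 0.45 for cocultured constructs (edgeR adjusted p = 1.0). Without both normal 3 and irradiated 1 the irradiated value was 0.28. Irradiated against cocultured constructs gave 0.13 ± 0.45 (SE), with overlap. Scap, the escort of both factors, averaged 32.0 ± 12.4 CPM in irradiated, 27.0 ± 4.98 CPM in cocultured and 25.9 ± 25.1 CPM in normal constructs (SD, n = 3 each).

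Insig1, itself a target of SREBP, was near the limit of counting. It stood at 9.37, 0.470 and 0 CPM in irradiated constructs, at 11.5, 8.38 and 0 CPM in cocultured constructs and at 17.3, 4.09 and 16.1 CPM in normal constructs, from 49, 188 and 161 counts per group. The groups overlapped, and the log2 fold change of irradiated against normal, -1.93 ± 2.61 (SE, edgeR adjusted p = 1.0), had a 95% interval of -7.58 to 3.71. Insig2, its paralogue, averaged 69.9 ± 13.9 CPM in irradiated, 84.7 ± 25.8 CPM in cocultured and 65.4 ± 43.9 CPM in normal constructs (SD, n = 3 each). Stard4, a soluble sterol carrier, was lower in cocultured constructs, at 6.43, 3.00 and 0.565 CPM, than in normal constructs, at 23.4, 33.4 and 7.39 CPM, with an edgeR adjusted p of 1.0.

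**Figure D3:**
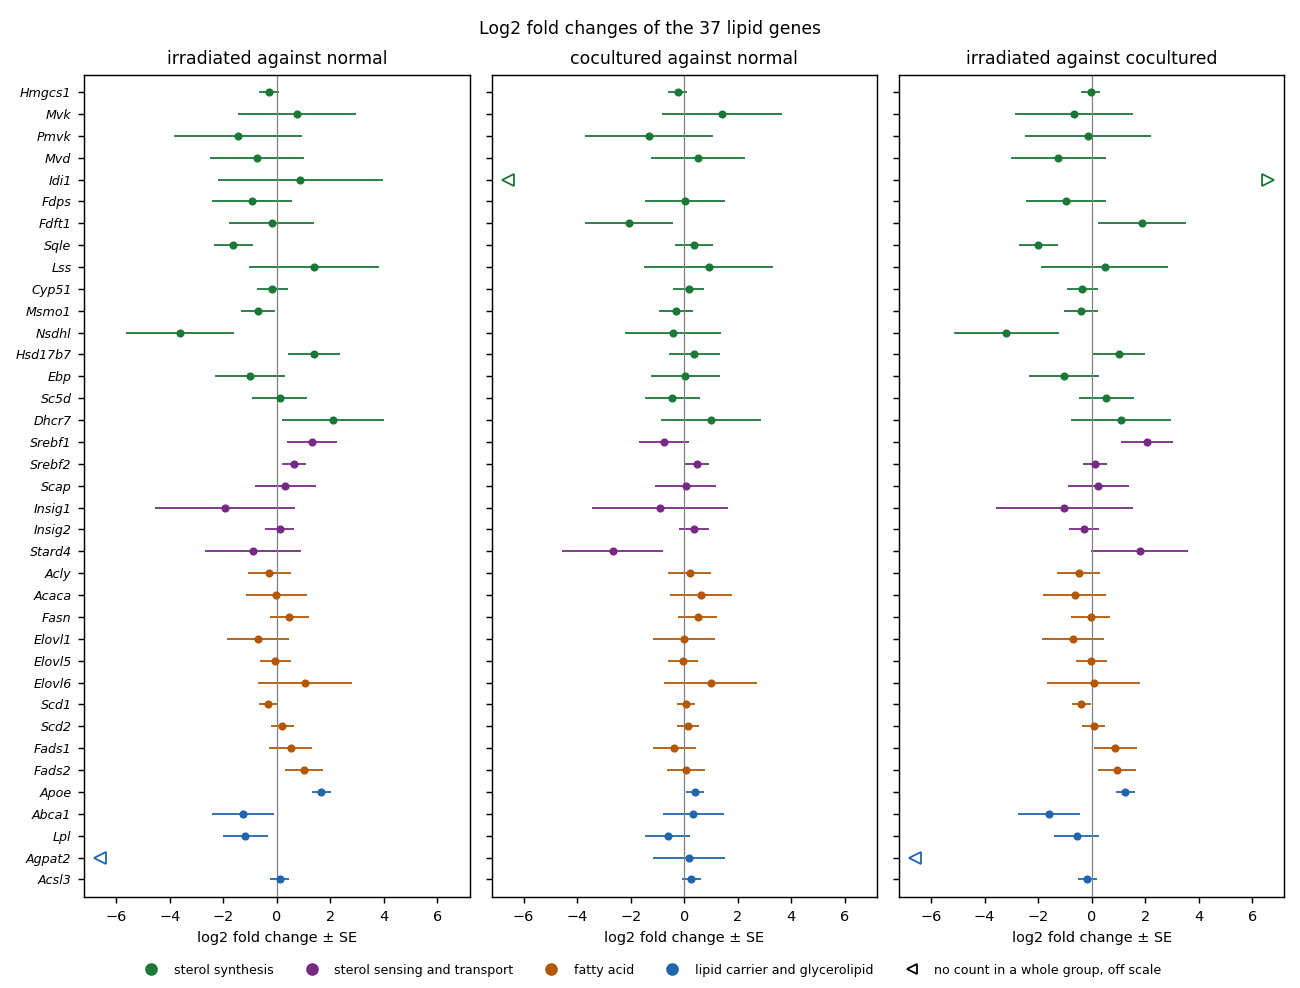
Log2 fold changes with SE (horizontal axis) of the 37 lipid genes (rows, coloured by role) in the 3 comparisons. Open triangles at the edge are Idi1 and Agpat2, which had no count in a whole group and whose fitted values are no bounds; In both comparisons of irradiated constructs, Apoe and Sqle lie farthest from 0 relative to their SE among the genes with counts in every group.

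No enzyme of fatty acid synthesis passed the test, and their summed levels overlapped between the 3 groups. Their summed level was 508, 544 and 711 CPM in irradiated constructs, 541, 593 and 705 CPM in cocultured constructs and 536, 603 and 534 CPM in normal constructs. Of the 10 genes, 5 had a positive and 5 a negative log2 fold change for irradiated against normal, from -0.69 to 1.05 with a median of 0.09, and none separated the groups in any comparison.

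Scd1 and Scd2, the stearoyl-CoA desaturases that make monounsaturated fatty acids, gave the narrowest intervals. Scd1 stood at 117, 138 and 166 CPM in irradiated constructs, at 140, 191 and 218 CPM in cocultured constructs and at 131, 160 and 234 CPM in normal constructs. Its log2 fold change against normal was -0.32 ± 0.35 for irradiated (SE, 95% interval -1.07 to 0.44) and 0.06 ± 0.35 for cocultured constructs (-0.69 to 0.82). The groups overlapped in both comparisons.

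Scd2 stood at 107, 104 and 173 CPM in irradiated constructs, at 102, 127 and 138 CPM in cocultured constructs and at 145, 130 and 57.5 CPM in normal constructs. Its log2 fold change against normal was 0.21 ± 0.42 for irradiated (SE, 95% interval -0.70 to 1.11) and 0.14 ± 0.42 for cocultured constructs (-0.77 to 1.04). The groups overlapped, and without normal 3 the signs turned, to -0.10 and -0.18. The ratio of Scd1 to Scd2 counts was 0.958 to 1.32 in irradiated, 1.37 to 1.58 in cocultured and 0.901 to 4.07 in normal constructs. The highest value was that of normal 3, the library with the highest muscle marker sum. The paralogues are similar in sequence, and reads shared between them cannot be separated here.

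Fasn, fatty acid synthase, varied widely within groups. It stood at 85.2, 13.2 and 87.5 CPM in irradiated constructs, at 72.7, 29.7 and 88.5 CPM in cocultured constructs and at 46.4, 61.4 and 26.0 CPM in normal constructs. The log2 fold change against normal was 0.47 ± 0.73 for irradiated (SE, edgeR adjusted p = 1.0) and 0.51 ± 0.73 for cocultured constructs (edgeR adjusted p = 1.0). Limma voom gave -0.27 for irradiated against normal constructs, the opposite sign.

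The suppliers of Fasn were also without separation. Acly, which makes cytosolic acetyl-CoA from citrate, averaged 34.5 ± 29.5 CPM in irradiated, 48.5 ± 13.2 CPM in cocultured and 42.2 ± 21.2 CPM in normal constructs (SD, n = 3 each), and Acaca, acetyl-CoA carboxylase, ranged from 4.69 to 30.2 CPM in irradiated, from 5.99 to 46.5 CPM in cocultured and from 11.5 to 30.6 CPM in normal constructs. Elovl5, an elongase of polyunsaturated fatty acids, was nearly level at 50.9 ± 17.7 CPM in irradiated, 51.5 ± 10.1 CPM in cocultured and 53.0 ± 12.3 CPM in normal constructs. Elovl1 and Elovl6, elongases of very long and of saturated chains, overlapped between groups. The desaturases Fads1 and Fads2 were highest in irradiated 2, at 80.6 and 95.4 CPM. Fads2 averaged 60.7 ± 30.0 CPM in irradiated, 31.4 ± 11.2 CPM in cocultured and 30.2 ± 13.0 CPM in normal constructs, with overlap (edgeR adjusted p = 0.861 for irradiated against normal).

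Exposure to an irradiated neighbour left no lipid gene past the test. In cocultured against normal constructs edgeR's quasi-likelihood test called 0 members and 0% of all genes tested, and 0 members had an unadjusted p under 0.05, against 4.11% of all genes (0.851% higher and 3.26% lower). DESeq2 called 1 member, Idi1, and limma voom 0. The groups did not overlap in 2 members (5.41%), Fdft1 and Stard4, both lower in cocultured constructs, against 13.2% of all genes (5.66% higher and 7.51% lower). The median log2 fold change of the 37 was 0.06, and that of all genes tested -0.07.

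Irradiated constructs were also set against cocultured constructs directly. EdgeR's quasi-likelihood test called 0 of 37 members and 0.0334% of all genes tested. At an unadjusted p under 0.05 there were 3 members (8.11%), again Apoe, Agpat2 and Sqle, against 9.58% of all genes (2.25% higher and 7.33% lower). DESeq2 called Apoe, Agpat2 and Idi1, and limma voom Apoe and Agpat2. The groups did not overlap in 6 members (16.2%), with Apoe, Srebf1 and Fdft1 higher and Agpat2, Sqle and Abca1 lower in irradiated constructs, against 14.5% of all genes (3.9% higher and 10.6% lower). This comparison and that of irradiated with normal constructs share the irradiated libraries.

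The error of the fold changes was larger at low levels. For irradiated against normal constructs the median SE of the log2 fold change was 0.50 among the 12 members with a mean of at least 50 CPM, 1.03 among the 13 members of 20 to 50 CPM and 2.06 among the 12 below 20 CPM. Over all genes tested the same medians were 0.51, 1.13 and 2.71. For the 12 least counted members, among them Mvk, Pmvk, Idi1, Insig1 and Agpat2, a several-fold difference lay within the error. Lpl, among the most counted members, had an SE of 0.84, so the spread between libraries also limited what could be seen.

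**Figure D4:**
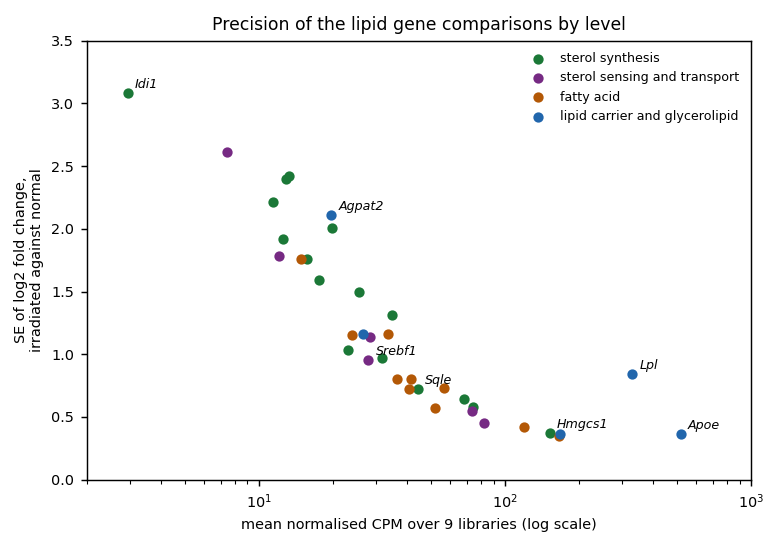
SE of the log2 fold change for irradiated against normal constructs (vertical axis) against mean normalised CPM over 9 libraries (horizontal axis, log scale) for the 37 lipid genes, coloured by role. The SE falls from 3.08 at Idi1 to 0.36 at Apoe, and Lpl, with an SE of 0.84, lies above the other genes of its level.

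No related lipid gene outside the 37 passed the test either. Of 105 genes listed for sterol synthesis and isoprenoids, sterol uptake and trafficking, fatty acid supply and oxidation, glycerolipids and lipid droplets, and lipoprotein handling, 95 were tested and 0 were called in any comparison by edgeR's quasi-likelihood test. At an unadjusted p under 0.05, 5 were higher and 5 lower in irradiated against normal constructs, 2 and 2 in cocultured against normal constructs, and 4 and 5 in irradiated against cocultured constructs. These were 10.5%, 4.21% and 9.47% of the 95, against 10.3%, 4.11% and 9.58% of all genes tested. Hacd3, a dehydratase of very long chain fatty acid elongation, had 145, 222 and 149 CPM in irradiated constructs, against 60.0, 57.7 and 49.0 CPM in normal constructs (log2 1.63 ± 0.42 SE, edgeR adjusted p = 0.216). Acsl4, which activates arachidonic acid, had 57.7, 77.7 and 13.4 CPM in irradiated constructs, against 226, 138 and 255 CPM in normal constructs (log2 -2.06 ± 0.54 SE, edgeR adjusted p = 0.235). In both genes the irradiated and normal groups lay apart. Cocultured constructs had 120, 90.5 and 54.6 CPM of Hacd3 and 145, 205 and 212 CPM of Acsl4, and the irradiated libraries lay apart from these too. Against cocultured constructs the log2 fold change was 0.96 ± 0.41 for Hacd3 (SE, edgeR adjusted p = 0.493) and -1.92 ± 0.54 for Acsl4 (SE, edgeR adjusted p = 0.405). Scarb1, a receptor for high-density lipoprotein, had no count in irradiated constructs and 30.4, 8.17 and 26.2 CPM in cocultured constructs, at least 170-fold lower with the irradiated group set at 3 counts (edgeR adjusted p = 0.493). In normal constructs Scarb1 stood at 9.86, 17.3 and 0 CPM, so these overlapped the irradiated ones.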

How the data were processed

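RNA of each construct (100 ng) went into oligo-dT-primed QuantSeq 3′ libraries, sequenced as single-end 75 bp reads per the labels' protocols. FastQC, STAR, HTSeq and the builds GRCm39 and mm39 are named in the submitters' processing notes. Their versions, the annotation and the strand setting were not given in the sources used here. Overlapping or near-identical genes may therefore share reads. The authors deposited whole-number counts per gene symbol, not normalized. Column numbers in the file headers run 1 above the labels, and headers of the normal libraries hold "co", which their labels do not; groups follow the labels. No within-group pair looked like a library deposited more than once (chi-square per gene of at least 35.38).

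Genes were tested with edgeR 4.0.16 in R 4.3.3: filterByExpr defaults (11980 genes kept, all 37 members among them), TMM factors, and glmQLFit and glmQLFTest with group as the term over 9 libraries. The call threshold was a Benjamini-Hochberg adjusted p under 0.05. SEs are the log2 fold change over the square root of F, and 95% intervals use them with the test's degrees of freedom. The test was checked on simulated data: at the spread estimated from these libraries it recovered a minority of the changes put in, even large ones, so a gene that was not called may still differ. DESeq2 1.42.0, limma 3.58.1, other scalings and filters and left-out libraries were alternatives. Full values were given for members with an unadjusted p under 0.05, for members of at least 20 CPM whose groups lay apart, and for a panel of 10. Members and lists were chosen with earlier results of these data known. Floors and intervals on counts cover counting error only.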

Additional observations from a re-analysis of the deposited data

How the results depend on the processing

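The count of lipid genes called was 0 in all 3 comparisons and stayed 0 with other scalings, the 6 libraries of a comparison alone and a replicate block. It was also 0 with a minimum of 20 CPM, where 25 of the 37 were tested and Agpat2 was not among them. For irradiated against normal constructs it was 2 with DESeq2 and without the filter on low counts, 1 with limma voom and without both irradiated 2 and irradiated 3, and 0 to 2 as single libraries were left out. For cocultured against normal constructs it was 1 with DESeq2. For irradiated against cocultured constructs it was 3 with DESeq2, 2 with limma voom, and 1 without the filter and without both irradiated 2 and irradiated 3. Over all genes tested, the calls for irradiated against normal constructs (7) were 130 without the filter, 464 with DESeq2, 25 with limma voom, 0 in the 6 libraries alone, 23 with a replicate block, 6 to 147 as single libraries were left out, the highest without irradiated 1, 20 without both normal 3 and irradiated 1 and 190 without both irradiated 2 and irradiated 3. For cocultured against normal constructs (0) they were 52 without the filter, 126 with DESeq2, 1 without both normal 3 and irradiated 1 and 96 without both irradiated 2 and irradiated 3. For irradiated against cocultured constructs (4) they were 9 with library totals, 153 without the filter, 543 with DESeq2, 105 with limma voom, 0 in the 6 libraries alone, 12 with a replicate block, 1 to 97 as single libraries were left out, again highest without irradiated 1, 21 without both normal 3 and irradiated 1 and 449 without both irradiated 2 and irradiated 3, where 1 irradiated library is assumed to vary like the other groups. The cause of these differences was not tested.

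Some log2 values turned sign, most of them near 0, but also Abca1 (-1.25) and Lpl (-0.62). Against normal constructs in irradiated ones, Hmgcs1 was 0.09 with library totals, Fasn -0.27 with limma voom and -0.09 without both normal 3 and irradiated 1, Scd1 0.22 with library totals and 0.08 without both of those libraries, Scd2 -0.07 and -0.10 without irradiated 3 and normal 3 and -0.06 without both irradiated 2 and irradiated 3, and Abca1 0.08 without these 2. In cocultured constructs, Hmgcs1 was 0.24 with library totals and 0.01 without normal 2, Scd1 -0.08 without cocultured 3 and -0.08 without normal 1, Scd2 -0.18 without normal 3 and -0.18 without both normal 3 and irradiated 1, and Lpl 0.15 with library totals, 0.30 without normal 3 and 0.30 without both. Library totals moved the median of all genes by 0.35, 0.55 and -0.18 in the 3 comparisons. With single libraries left out, Scd2 ran from -0.10 to 0.47 for irradiated against normal constructs, and for cocultured against normal constructs Hmgcs1 ran from -0.47 to 0.01, Scd1 from -0.08 to 0.33, Scd2 from -0.18 to 0.39 and Lpl from -1.58 to 0.30. Relative to the median of all genes Apoe was 1.88 with them and 1.87 with TMM factors for irradiated against normal constructs.

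The counts showed no pairing by replicate number. Correlations of deviations ran from -0.071 to 0.0537 between same-numbered libraries and from -0.081 to 0.0944 between the others. Of 18 best matches, 7 were of the same number. As all these correlations lay near 0, the check could not tell which libraries came from a common dish. The replicate block changed no lipid call. The weakly counted members had the largest errors. Irradiated 2, the library with the highest total, lacked counts most often among the genes chosen at 20 to 50 CPM in the normal and cocultured libraries. The cause was not tested.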
